A study of Rattus norvegicus with 8 samples.

Results

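Plasma of adult Sprague-Dawley rats that had gone through intermittent hypoxia at 5% oxygen (5% IH) as newborns was compared with autologous plasma in its effect on transcripts of cultured blood cells. The comparison takes the 2 arrays titled 5% IH and the 2 titled autologous, 4 of the 8 arrays of the series, and covers all 14217 genes that the array annotation names, each by its probe set with the highest mean over the 8 arrays. The reporter cells were peripheral blood mononuclear cells (PBMCs), which are mostly lymphocytes and monocytes, from 2 healthy male Brown Norway rats, BN1 and BN2, about 180 days old. For each culture 500000 cells were kept for 6 h in medium with 20% plasma, and each culture was read on its own Affymetrix rat expression array.

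The 5% IH plasma came from male Sprague-Dawley rats that had breathed 5% oxygen in bouts for 1 h a day on postnatal days 2 to 6, and it was taken in adulthood (PD114, a postnatal day) and pooled from 5 rats. Autologous plasma came from the Brown Norway rats themselves, at about 180 days, with no hypoxia. Normoxic control plasma was a pool from 8 Sprague-Dawley rats that stayed at 21% oxygen, and 10% IH plasma a pool from 3 rats that met 10% oxygen on the same days; both were also taken at PD114 and are used here only to place the values of the 5% IH arrays. The 5% IH and autologous plasmas thus differed at once in strain, in age, in pooling and in the neonatal exposure. The strains were also housed at different institutions, and the study states an overnight fast and decapitation for the Sprague-Dawley rats only. Within this comparison the parts of all these cannot be told apart. Normoxic control plasma, which shares strain, age and pooling with 5% IH plasma but not the exposure, is set beside it further on. The labels of the autologous arrays do not settle the plasma, since the source label of the BN1 array also names BN2 and the BN2 array is once said to hold BN1 plasma. Each Sprague-Dawley plasma was pooled 1 time, so that p-values measure the spread between cultures of the cells of 2 reporter rats, to which their own plasmas may add in the autologous group, and not the spread between plasma donors.

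PBMCs serve as reporters because soluble factors in plasma, such as cytokines, hormones and microbial products, reach receptors on these cells and change transcription within hours. Monocytes answer such signals with interleukin 1, chemokines and prostaglandin enzymes, many of them under the transcription factor NF-kB, while glucocorticoid hormone switches on a different set of genes through its own receptor. NRF2 drives genes against oxidative stress, and the unfolded protein response drives chaperones of the endoplasmic reticulum.

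Among the genes called by limma the response was strongly one-sided, since those higher with 5% IH plasma far outnumbered those that were lower and changed by much more. All levels are log2 values as the authors normalized them, so that a difference of 1 is a 2-fold change, and differences are given as 5% IH minus autologous ± limma's standard error. limma, at an adjusted p under 0.05 (Benjamini-Hochberg, all 31042 probe sets), called 391 genes (2.75%), 361 of them higher (2.54% of 14217) and 30 lower (0.211%). Over probe sets 1.96% were called, 1.71% higher and 0.248% lower. Of the genes called higher, 171 differed by more than 1, 67 by more than 2 and 7 by more than 4, while 3 of the genes called lower exceeded 1 in size. The median difference was 0.97 over the genes called higher and -0.62 over those called lower, against -0.01 over all genes. In each of the 391 genes called, both donors' differences exceeded 1.2-fold in the direction of the call. The genes were called on these same arrays, which by itself favours such agreement, so it is a description. Across all 14217 genes the BN1 and BN2 differences correlated at r = 0.682, a description across genes, which are not independent.

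The study's own criterion, a Rank Product p under 0.05 with a difference of over 1.2-fold, was met by 887 genes higher (6.24%) and 594 lower (4.18%), with all 391 limma calls among them. The criterion took in 10.4% of genes in all. That p is unadjusted and 1-sided in each direction, and over probe sets the shares were 5.4% and 5.34%. The words rose and fell are therefore kept for limma calls. The count of limma calls rested partly on single arrays: without the 5% IH array of BN2 it was 193 genes higher and 0 lower, without that of BN1 242 and 5, without the autologous array of BN2 274 and 14, without that of BN1 283 and 46, and without a control array 299 and 13. A single array so left out leaves its group with 1 sample, assumed to vary like the others.

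**Figure D1:**
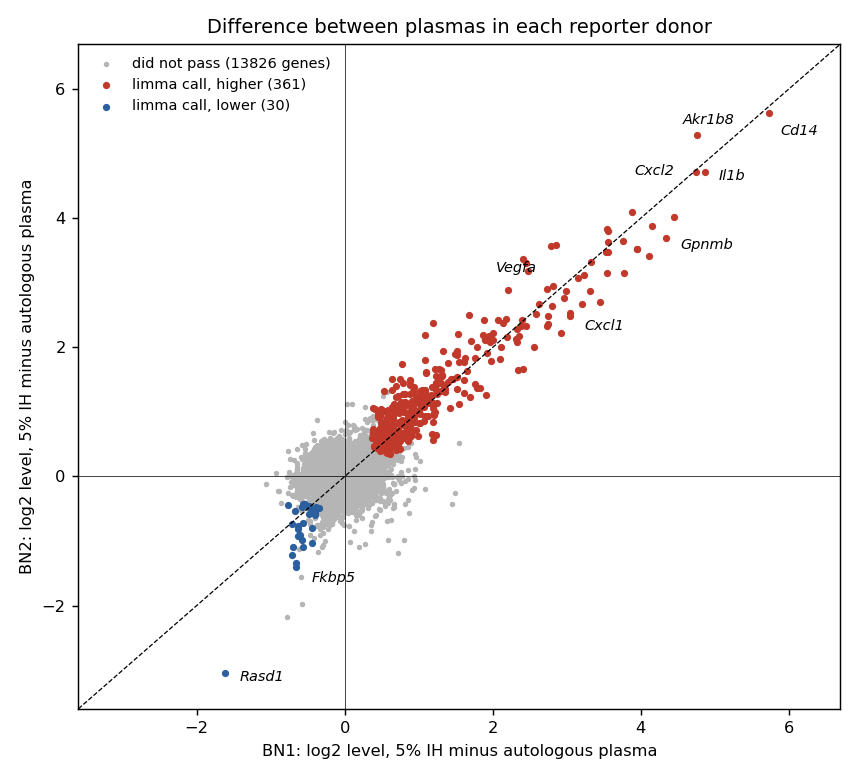
Each point is 1 of 14217 genes, with the log2 difference between 5% IH and autologous plasma in BN1 cells on the x axis and in BN2 cells on the y axis; the dashed line marks equal differences. The 361 genes called higher (red) stretch along the line to beyond 5, while of the 30 called lower (blue) all but Rasd1, at -1.62 and -3.05, stay within 1 of 0 on BN1 cells.

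The largest rise was that of *Cd14*, the monocyte receptor that hands bacterial lipopolysaccharide to Toll-like receptor 4. Its level was 10.21 on BN1 and 10.40 on BN2 cells with 5% IH plasma and 4.48 and 4.78 with autologous plasma, a difference of 5.68 ± 0.13 (adjusted p = 4.48e-07), or 51.3-fold. With autologous plasma it stood at percentile 36.3 of all probe sets and with 5% IH plasma at percentile 97.2. *Akr1b8*, an aldo-keto reductase that detoxifies aldehydes, went from 3.16 and 2.99 to 7.92 and 8.28 (5.03 ± 0.21, adjusted p = 5.38e-06). For both genes the lower 5% IH array lay more than 4 log2 units above the higher autologous array.

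Several of the other 13 of the 15 largest rises encode surface receptors and secreted proteins of monocytes and macrophages. *Clec4a3*, a C-type lectin receptor, read 3.75 and 4.49 with autologous plasma and 8.20 and 8.50 with 5% IH plasma and rose by 4.23 ± 0.23 (adjusted p = 1.88e-05). *Igsf6*, an immunoglobulin superfamily gene of myeloid cells, rose by 4.01 ± 0.20 (adjusted p = 1.1e-05), and *Pilra*, an inhibitory immunoglobulin-like receptor, by 3.70 ± 0.17 (adjusted p = 7.14e-06). *Mpeg1*, which encodes the pore-forming perforin-2 of macrophages, read 5.37 and 5.38 with autologous plasma and 8.92 and 9.22 with 5% IH plasma, with a rise of 3.69 ± 0.13 (adjusted p = 2.49e-06) that its second, dimmer probe set did not share (0.38). *Siglec5*, a sialic acid-binding receptor, rose by 3.68 ± 0.16 (adjusted p = 5.38e-06) and *C3*, the central complement protein, by 3.59 ± 0.12 (adjusted p = 2.28e-06). *Gpnmb*, a membrane glycoprotein of macrophages, differed more on BN1 than on BN2 cells, with 4.67 and 5.74 with autologous plasma and 9.02 and 9.44 with 5% IH plasma (4.02 ± 0.31, adjusted p = 0.000136). In all 15 genes the 5% IH and autologous arrays did not overlap, as in 19.2% of all genes with 5% IH higher and 21.5% with it lower. With autologous plasma 14 of the 15 stood below the median level of all probe sets, and with 5% IH plasma all 15 stood above it. At such low levels an array value holds background signal, so that the folds are those of the deposited values only. The same holds for the folds given below for *Cxcl1*, *Ptgs2* and *Vegfa*, which also stood below that median with autologous plasma.

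**Figure D2:**
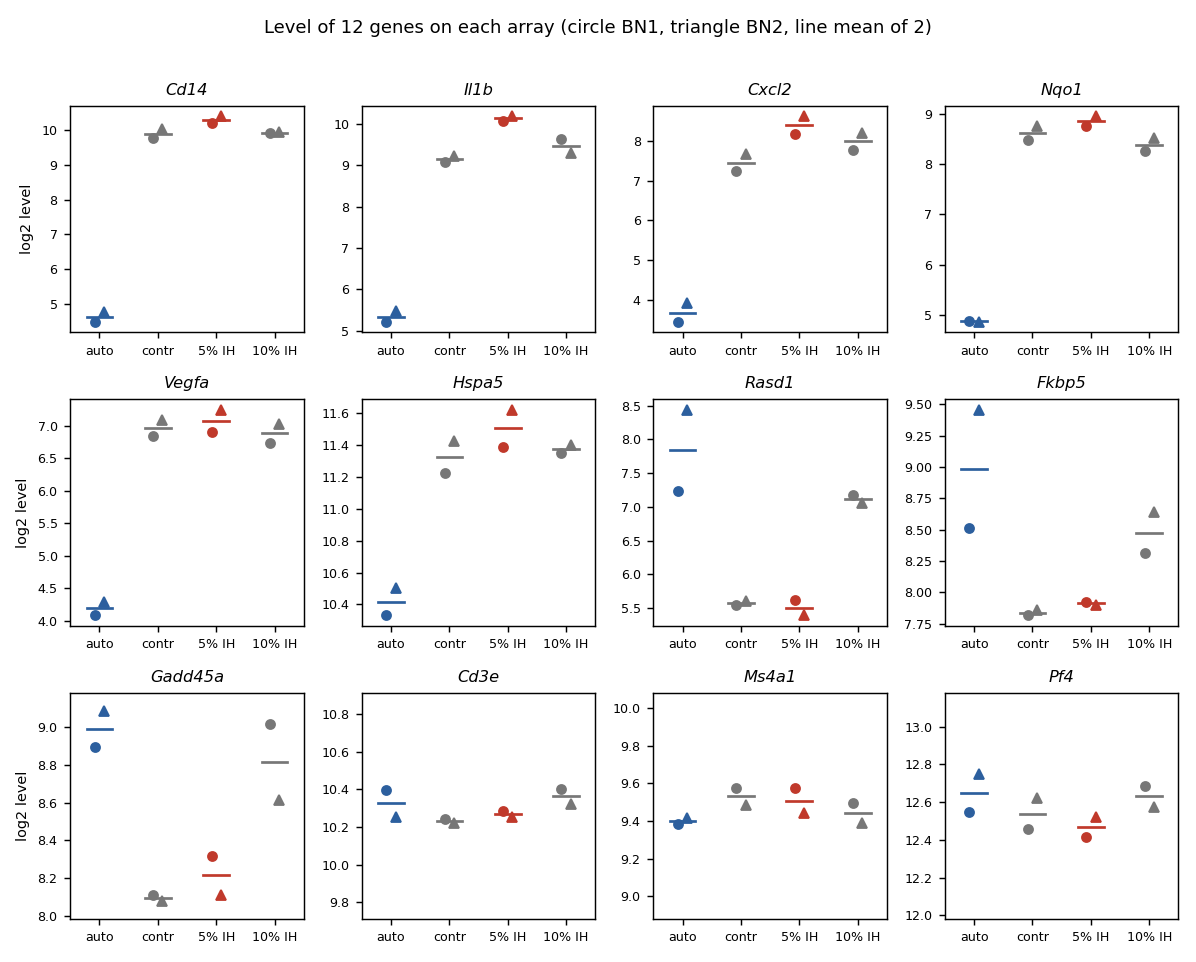
Log2 levels of 12 genes on each of the 8 arrays, by plasma (auto, autologous; contr, normoxic control); circles are BN1, triangles BN2 and lines the means of 2 (y axes differ between panels). Cd14, Il1b, Cxcl2, Nqo1, Vegfa and Hspa5 are higher with 5% IH than with autologous plasma, Rasd1, Gadd45a and, without passing, Fkbp5 lower, and Cd3e, Ms4a1 and Pf4 differ by less than 0.2.

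Markers of each blood cell type were set beside these rises. The counts for these and all lists below stand beside 2.54% of all genes called higher and 0.211% called lower. Of 24 monocyte markers measured, 17 rose and none fell, with a median of 1.12 over the list against -0.01 over all genes (11 rose without the 5% IH array of BN2). The summed level of the list, added on the linear scale, was 3551 and 3901 with autologous plasma and 10249 and 11876 with 5% IH plasma, 2.89-fold higher on BN1 and 3.04-fold on BN2 cells. All 3 defining markers were among them: *Cd14*, above; *Csf1r*, the receptor for macrophage colony-stimulating factor, at 4.53 and 5.37 with autologous plasma and 7.74 and 8.05 with 5% IH plasma (2.95 ± 0.25, adjusted p = 0.000284); and *Lyz2*, lysozyme, at 7.93 and 8.88 with autologous plasma and 10.86 and 11.11 with 5% IH plasma (2.58 ± 0.26, adjusted p = 0.000708). *Fcgr1a*, the high-affinity IgG receptor, rose by 3.52 ± 0.21 (adjusted p = 3.43e-05) and *Itgam*, the integrin CD11b, by 2.36 ± 0.17 (adjusted p = 9.56e-05). The members that did not pass were *Cx3cr1* (0.47), *Ccr2* (0.41), *Ms4a7* (0.16), *Fcgr3a* (0.05), *Aif1* (-0.06, other probe set 1.21), *Clec10a* (-0.08) and *Cd163* (-0.10), so that the list did not move as a whole. In these bulk cultures a larger share of monocytes in the harvested RNA and more RNA of these genes per cell cannot be told apart, and the part of cell composition in the other results was not tested.

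The lymphocyte and platelet lists moved far less. None of 20 T cell markers passed (median -0.03; summed level 26542 to 27139 with autologous and 24730 to 25358 with 5% IH plasma), and the defining markers *Cd3e*, *Cd3g* and *Lck* differed by -0.05, -0.02 and 0.06. Among 15 B cell markers, *Fcer2*, the low-affinity IgE receptor, rose by 1.35 ± 0.16 (adjusted p = 0.00241), with its other probe set at 0.27, and *Ebf1*, a transcription factor of B cells, fell by 0.60 ± 0.12 (adjusted p = 0.0385), a call lost with donor as a block (adjusted p = 0.0637) and without any single array except the autologous array of BN2; *Ms4a1* (CD20) differed by 0.11 and *Cd79b* by 0.20, and 3 B cell markers rose without the autologous array of BN1, and the summed level was 9265 to 10934 against 10262 to 10663. None of 17 NK and cytotoxic markers passed, with a median of -0.11, *Ncr1* at 0.11, *Nkg7* at -0.15 and *Prf1* at -0.17, and summed levels of 8622 to 10274 and 7229 to 9004.

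All but 1 of 14 platelet markers were below 0, with a median of -0.23 and none past limma's threshold; *Pf4*, *Itga2b* and *Gp9* differed by -0.18, -0.23 and -0.23, and the summed level was 14914 to 16350 with autologous against 13155 to 13574 with 5% IH plasma. No red cell marker of 9 passed (20926 to 21988 against 20570 to 20770), and *Hbb*, a globin, differed by 0.02. Neutrophil markers were dim, with summed levels of 194 to 265 and 303 to 305: *Lcn2* and *Csf3r*, which activated monocytes can also express, rose by 2.02 ± 0.12 (adjusted p = 3.95e-05) and 1.01 ± 0.15 (adjusted p = 0.0073), and the other 8 of 10 did not pass (*Cxcr2* 0.16). The *Csf3r* call was lost without the BN2 array of either plasma (adjusted p = 0.0841 without the 5% IH array and 0.063 without the autologous one). The part of these shifts in the results below was not tested.

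**Figure D3:**
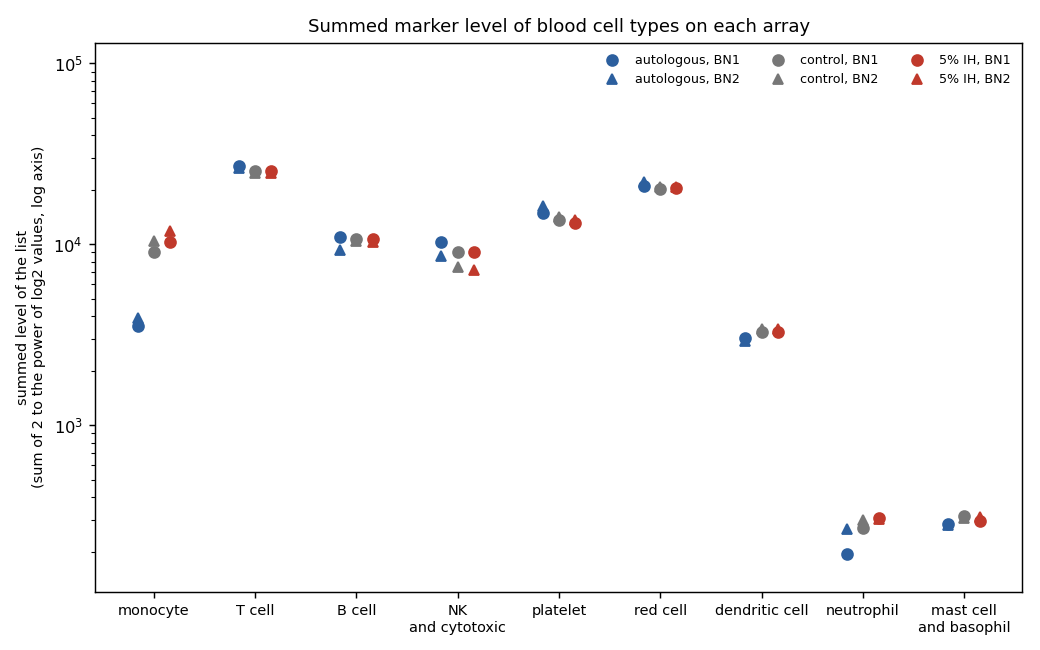
Summed level of 9 marker lists on the 6 arrays with autologous, normoxic control and 5% IH plasma (log axis; circles BN1, triangles BN2). The monocyte sums lie between 3551 and 3901 with autologous plasma and between 10249 and 11876 with 5% IH plasma, while the other lists change by less than 1.6-fold.

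Interleukin 1 led the cytokines. *Il1b*, the secreted interleukin 1 of monocytes, read 10.08 on BN1 and 10.18 on BN2 cells with 5% IH plasma and 5.21 and 5.47 with autologous plasma, a rise of 4.79 ± 0.14 (adjusted p = 1.74e-06) or 27.6-fold. *Il1a*, its partner on the same receptor, read 4.61 and 4.08 with autologous plasma and 6.51 and 6.20 with 5% IH plasma and rose by 2.01 ± 0.18 (adjusted p = 0.000406). The arrays of the groups were apart in both genes, as in 19.2% of all genes with 5% IH higher, and in *Il1b* by more than 4 units. *Il1rn*, the receptor antagonist, rose by 0.82 ± 0.11 (adjusted p = 0.00473), a call lost without the 5% IH array of BN1 (adjusted p = 0.0538). *Il1rap*, the accessory chain that interleukin 1 signalling needs, rose by 1.02 ± 0.10 (adjusted p = 0.000755), with its other probe set at 0.35. The decoy receptor *Il1r2* (0.50) and the receptor *Il1r1* (-0.10) did not pass. Over 19 genes of the IL-1 family and its regulators, 6 rose and none fell (median 0.30); without the 5% IH array of BN1 3 rose and without that of BN2 4, and leaving out either autologous array left 4.

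Of 24 inflammatory cytokines, 8 rose and none fell (median 0.19). *Tnf*, tumour necrosis factor, read 4.73 and 5.00 with autologous plasma and 6.52 and 6.37 with 5% IH plasma. It rose by 1.58 ± 0.13 (adjusted p = 0.000252), but its other probe set differed by 0.04 and did not pass. With autologous plasma that other probe set was the brighter one (mean 5.06 against 4.86). *Ebi3*, a subunit of heterodimeric cytokines, rose by 2.06 ± 0.12 (adjusted p = 2.57e-05), and *Osm*, oncostatin M, by 0.92 ± 0.11 (adjusted p = 0.00252). Of 16 feedback and STAT target genes 3 rose, *Osm*, *Pim2*, a kinase (0.94), and *Cebpd*, a transcription factor (0.94, other probe sets down to -0.09), while *Socs3*, the feedback inhibitor of interleukin 6 signalling, stood at 0.28 without passing. Interleukin 6 (0.53), interleukin 12 subunits (*Il12a* -0.09, *Il12b* -0.04) and the T cell cytokines *Ifng* (0.07) and *Il2* (0.07) did not pass. Members named here and below only as not passing, beyond the 4 largest differences of a list, were chosen for their known roles after their values were seen.

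Among chemokines, the neutrophil attractants *Cxcl2* and *Cxcl1* rose together. *Cxcl2* read 3.43 and 3.91 with autologous plasma and 8.18 and 8.63 with 5% IH plasma (4.73 ± 0.23, adjusted p = 1.03e-05, 26.6-fold). *Cxcl1* read 3.14 and 3.74 with autologous plasma and 6.18 and 6.22 with 5% IH plasma (2.76 ± 0.17, adjusted p = 4.02e-05, 6.79-fold). The groups did not overlap in either gene, as in 19.2% of all genes with 5% IH higher. *Cxcl16*, a membrane-bound chemokine that also takes up lipid, rose by 3.22 ± 0.16 (adjusted p = 1.31e-05). These were the 3 of 13 CXC chemokines that passed, and the platelet chemokine *Ppbp* stood at -0.35 without passing. Of 16 CC chemokines, *Ccl3* (macrophage inflammatory protein 1 alpha) rose by 1.45 ± 0.16 (adjusted p = 0.00137) from 8.50 and 8.01 to 9.59 and 9.82, and *Ccl2*, the monocyte attractant, by 1.64 ± 0.21 (adjusted p = 0.00358) from 3.52 and 2.93 to 4.60 and 5.13. *Ccr1*, a receptor of *Ccl3*, rose by 3.08 ± 0.27 (adjusted p = 0.000318), the 1 of 13 chemokine receptors to pass, while *Ccr2*, the receptor of *Ccl2*, differed by 0.41 and did not pass.

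The promoters of *Cxcl1* and *Cxcl2* are shown because both chemokines rose and each holds 2 matches to the letters of an NF-kB site. The search was for GGG, any 2 bases and TTTCC on both strands of the 250 bases before each start in RefSeq's GRCr8 annotation, and 435 of 33469 promoters (1.3%) hold it. The 150 bases before the start lie at chr14:17479322-17479471 on the minus strand for *Cxcl1* and at chr14:17467256-17467405 on the minus strand for *Cxcl2*, printed 5′ to 3′ with the matches in capitals.
Cxcl1: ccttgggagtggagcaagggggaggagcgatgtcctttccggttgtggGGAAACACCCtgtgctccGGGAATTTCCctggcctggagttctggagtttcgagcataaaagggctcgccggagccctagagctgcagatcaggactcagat
Cxcl2: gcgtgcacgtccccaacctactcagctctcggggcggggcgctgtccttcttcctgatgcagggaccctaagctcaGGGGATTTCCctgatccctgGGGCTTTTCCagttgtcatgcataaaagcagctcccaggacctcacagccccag
A match in the letters is a description and not a measured site. Of 11 promoters of the CXC chemokines 3 hold one, the third being that of *Cxcl6*, which did not pass (0.13).

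All 19 genes of the NF-kB list lay above 0, 7 of them past the threshold, with a median of 0.49 (3 passed without the 5% IH array of BN2, 5 without that of BN1 and 5 without the autologous array of BN2). The survival gene *Bcl2a1* read 6.47 and 6.82 with autologous plasma and 8.83 and 9.0 with 5% IH plasma (2.27 ± 0.14, adjusted p = 3.49e-05). *Icam1*, an adhesion molecule, rose by 1.72 ± 0.12 (adjusted p = 7.62e-05) and *Nfkbiz*, a nuclear cofactor that widens the set of NF-kB targets, by 1.13 ± 0.09 (adjusted p = 0.00017), though its other probe set read 0.08. The inhibitors *Nfkbia* and *Tnfaip3*, usually early targets, differed by 0.27 and 0.12 and did not pass, and neither did the subunits *Nfkb1* (0.30) and *Rela* (0.03). Of 17 promoters of this list 4 hold the NF-kB letters, those of *Nfkb2*, *Nfkbia*, *Nfkbiz* and *Tnfaip3*, and among these *Nfkbiz* rose.

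Of the genes of prostaglandin and leukotriene synthesis, those that feed the first steps had the largest rises. *Ptgs2*, the inducible cyclooxygenase, read 3.21 and 2.69 with autologous plasma and 5.95 and 5.60 with 5% IH plasma and rose by 2.82 ± 0.18 (adjusted p = 4.85e-05) or 7.08-fold. *Pla2g4a*, the phospholipase that frees arachidonic acid, rose by 1.29 ± 0.11 (adjusted p = 0.000265). *Ptges*, the final enzyme for prostaglandin E, differed by 0.13 ± 0.12 on its brightest probe set, which did not pass. Its other, dimmer probe set differed by 1.26 and did pass (adjusted p = 0.00145). In all, 5 of 19 genes rose and none fell (median 0.07; 3 rose without the 5% IH array of BN1, that of BN2 or the autologous array of BN1). The constitutive cyclooxygenase *Ptgs1* (-0.20) and the lipoxygenase *Alox5* (0.07) did not pass.

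Receptors for microbial products and complement rose in part. Of 13 Toll-like receptors and adaptors 4 rose (median 0.41): *Cd14*, *Tlr8* (2.65 ± 0.18, adjusted p = 6.93e-05), *Tlr7* (1.36 ± 0.16, adjusted p = 0.00234), both sensors of RNA, and *Tlr2* (1.21 ± 0.11, adjusted p = 0.000349), which binds bacterial lipoproteins. In the complement list 4 of 18 rose (median 0.06), which were *C3*, the integrins *Itgam* and *Itgax*, which are also complement receptors, and *C5ar1*, the receptor for the fragment C5a, at 4.89 and 4.83 with autologous plasma and 7.03 and 7.22 with 5% IH plasma (2.26 ± 0.15, adjusted p = 5.64e-05). Of 24 immediate-early transcription factors 4 rose (median 0.21; 2 without the 5% IH array of BN2 and 2 without the autologous array of BN1). *Ier3*, a survival gene of early response, read 3.88 and 4.45 with autologous plasma and 7.83 and 7.98 with 5% IH plasma (3.74 ± 0.19, adjusted p = 1.37e-05) and *Fos* 4.67 and 5.12 with autologous plasma and 6.10 and 6.18 with 5% IH plasma (1.25 ± 0.14, adjusted p = 0.00128), although a dimmer *Fos* probe set read -0.06. *Dusp6*, a phosphatase that damps ERK signalling, was the 1 of 12 MAP kinase phosphatases to rise (1.48 ± 0.18, adjusted p = 0.00234).

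Antioxidant genes under NRF2 held a pair of the largest rises. Beside *Akr1b8*, *Nqo1*, a quinone reductase, read 4.88 and 4.86 with autologous plasma and 8.77 and 8.95 with 5% IH plasma and rose by 3.99 ± 0.13 (adjusted p = 1.94e-06) or 15.9-fold, with donors less than 0.2 apart in each plasma. *Hmox1*, heme oxygenase 1, read 5.56 and 4.76 with autologous plasma and 6.75 and 7.14 with 5% IH plasma (1.79 ± 0.24, adjusted p = 0.00441), a call lost without the 5% IH array of BN2 (adjusted p = 0.0539). *Slc7a11*, the cystine importer, rose by 1.34 ± 0.12 (adjusted p = 0.000317). Of 16 genes 8 rose and none fell (median 0.52). The glutathione synthesis subunits *Gclc* (0.40) and *Gclm* (-0.24) did not pass and lay on opposite sides of 0.

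In the matrix remodelling list 6 of 19 genes rose and none fell (median 0.15), a count that was 6 or 7 in every setting tried. *Fn1*, fibronectin, read 5.36 and 6.46 with autologous plasma and 9.47 and 9.87 with 5% IH plasma (3.76 ± 0.30, adjusted p = 0.000182), with autologous arrays more than 1 apart, and *Tgfbi*, a matrix protein induced by transforming growth factor beta, read 4.75 and 5.33 with autologous plasma and 8.70 and 8.86 with 5% IH plasma (3.74 ± 0.19, adjusted p = 1.19e-05). *Vcan*, the proteoglycan versican, rose by 3.35 ± 0.26 (adjusted p = 0.000143), its 5 probe sets ranging from 0.08 to 4.77. *Tgm2*, a transglutaminase, rose by 2.88 ± 0.19 (adjusted p = 5.33e-05), with its other probe set at 0.45. The metalloproteinases *Mmp9* (0.17, other probe set 0.72) and *Mmp12* (0.03) did not pass.

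In the scavenger and lipid uptake list 6 of 14 rose (median 0.29), led by *Plin2*, which coats lipid droplets (6.96 and 7.29 with autologous plasma and 9.55 and 9.81 with 5% IH plasma; 2.55 ± 0.15, adjusted p = 3.56e-05), and *Clec7a*, the receptor for beta-glucan (2.41 ± 0.13, adjusted p = 1.74e-05). *Abca1*, the exporter of cholesterol, read 5.11 and 5.80 with autologous plasma and 8.43 and 8.67 with 5% IH plasma and rose by 3.10 ± 0.22 (adjusted p = 9.53e-05), with all 4 of its probe sets at 1.72 or more. *Nr1h3*, the LXR alpha receptor that drives it, rose by 1.12 ± 0.10 (adjusted p = 0.000272). They were the 2 of 12 genes of LXR and cholesterol efflux that rose (median 0.13). Other members such as *Abcg1* (0.23), *Mylip* (-0.17) and *Srebf1* (-0.02) did not pass. Cathepsins *Ctsl* (1.22 ± 0.10, adjusted p = 0.000252), *Ctsz* (1.05 ± 0.14, adjusted p = 0.00489) and *Ctsb* (0.95 ± 0.13, adjusted p = 0.00516), the proteases of lysosomes, rose among 5 of 26 lysosomal genes (median 0.11; 2 rose without the 5% IH array of BN2, where *Ctsz* had an adjusted p of 0.0568 and *Ctsb* of 0.0617; without the autologous array of BN2 that of *Ctsb* was 0.0502).

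In the endoplasmic reticulum stress list 8 of 21 genes rose and none fell (median 0.42), with 20 above 0. *Hspa5*, the chief chaperone (BiP), read 10.33 and 10.50 with autologous plasma and 11.39 and 11.62 with 5% IH plasma, a rise of 1.09 ± 0.12 (adjusted p = 0.00122) or 2.13-fold. *Creld2*, a secreted factor of the stress response, rose by 1.04 ± 0.15 (adjusted p = 0.00636), *Sdf2l1*, an Hspa5 partner, by 0.87 ± 0.12 (adjusted p = 0.00459) and *Pdia4*, a disulfide isomerase, by 0.82 ± 0.10 (adjusted p = 0.00195). The count was lower without the 5% IH array of BN2 (2, with *Creld2* at an adjusted p of 0.0539 and *Sdf2l1* at 0.0527) or of BN1 (5) and without the autologous array of BN2 (5, *Creld2* at 0.0569). It was higher with fewer tests or other moderation, at 14 with 1 probe set per gene, 14 with probe sets averaged by gene and 13 with an intensity trend and robust moderation. The transcription factors *Atf4* (0.03) and *Ddit3* (0.24) and the degradation gene *Herpud1* (-0.27) did not pass.

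Promoters of 3 of these genes are shown because each rose and holds the endoplasmic reticulum stress element, which is CCAAT, any 9 bases and CCACG, on either strand. Only 22 of 33469 promoters (0.0657%) hold these letters in the 250 bases before the start, and 7 of the 19 promoters of this list do, which describes the list and says nothing of the plasma. The 150 bases before the start lie at chr3:38452866-38453015 on the plus strand, chr7:23012294-23012443 on the minus strand and chr7:121789234-121789383 on the plus strand (GRCr8), printed 5′ to 3′ with the element in capitals, in *Hsp90b1* and *Creld2* as its reverse complement.
Hspa5: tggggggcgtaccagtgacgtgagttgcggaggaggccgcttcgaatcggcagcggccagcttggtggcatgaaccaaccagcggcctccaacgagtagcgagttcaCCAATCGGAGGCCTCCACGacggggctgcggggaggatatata
Hsp90b1: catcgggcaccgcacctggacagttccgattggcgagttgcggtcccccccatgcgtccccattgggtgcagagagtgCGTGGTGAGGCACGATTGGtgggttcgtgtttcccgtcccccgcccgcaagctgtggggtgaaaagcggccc
Creld2: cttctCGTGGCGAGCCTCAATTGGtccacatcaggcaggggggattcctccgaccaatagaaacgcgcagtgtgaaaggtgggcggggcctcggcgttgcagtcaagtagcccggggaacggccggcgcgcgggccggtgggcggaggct
*Hsp90b1*, the chaperone GRP94, rose by 0.70 ± 0.11 (adjusted p = 0.00929) and is named for its promoter, after its value was seen; the call was lost without the 5% IH array of BN2 (adjusted p = 0.105) and the autologous array of BN1 (0.0696). The other 4 list members with the element, *Calr* (0.52), *Xbp1* (0.41), *Dnajc3* (0.38) and *Canx* (0.17), lay above 0 without passing.

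Of 19 genes of cholesterol synthesis and uptake 6 rose and none fell (median 0.30), and the 13 that did not pass lay between 0.01 and 0.35. Among the rises were *Msmo1* at 8.01 and 8.06 with autologous plasma and 8.82 and 8.89 with 5% IH plasma (0.82 ± 0.08, adjusted p = 0.000939), *Sqle* (0.84 ± 0.11, adjusted p = 0.00333), the squalene epoxidase, and *Mvd* (0.72 ± 0.10, adjusted p = 0.00675). The count was 2 without the 5% IH array of BN2 and without the autologous array of BN2, and 3 without the 5% IH array of BN1; *Mvd* had adjusted p = 0.0829 and 0.056 without the BN2 arrays. The hypoxia and glycolysis list had 3 of 24 genes higher and none lower (median 0.08; 1 higher without the 5% IH array of BN2 and 1 without the autologous array of BN1). *Vegfa*, the vascular growth factor, led them with 4.09 and 4.30 with autologous plasma and 6.91 and 7.24 with 5% IH plasma. Its difference was 2.88 ± 0.15 (adjusted p = 1.7e-05, 7.37-fold). Another *Vegfa* probe set, the brighter one with autologous plasma (mean 4.76 against 4.19), differed by 0.16 and did not pass. The glycolysis genes *Ldha* (0.15) and *Pgk1* (0.08) and the hypoxia markers *Pdk1* (-0.03) and *Bnip3* (0.01) did not pass.

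For interferon-stimulated genes the count rested on single arrays. In the list 6 of 27 rose and none fell (median 0.22), but 1 was left without the autologous array of BN2, 2 without any other single array of either plasma, 3 without a control array, and 4 with donor as a block. *Ubd*, a ubiquitin-like protein that tumour necrosis factor also induces, rose by 2.30 ± 0.15 (adjusted p = 5.19e-05) from 6.27 and 6.12 to 8.59 and 8.40. The classic antiviral genes *Isg15* (0.22), *Ifit1* (0.12), *Mx1* (0.26) and *Rsad2* (-0.24) did not pass. Lists of housekeeping machinery gave no limma call in either direction: none of 25 ribosomal proteins, 28 proteasome subunits, 31 respiratory chain genes, 24 nucleolar genes, 13 heat shock proteins or 27 cell cycle genes passed, and their medians lay between -0.02 and 0.06.

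Some genes of costimulation, of plasminogen activation and coagulation, and of the p53 list changed as well. *Cd86*, a costimulatory ligand, read 5.47 and 5.49 with autologous plasma and 6.71 and 6.77 with 5% IH plasma (1.26 ± 0.11, adjusted p = 0.000284, other probe set 0.57), one of 3 of 20 genes of antigen presentation and costimulation to rise (median 0.19), a count that was 1 without the 5% IH array of BN1, that of BN2 or the autologous array of BN2, and 5 without the autologous array of BN1. *Plaur*, the urokinase receptor, read 3.95 and 4.68 with autologous plasma and 6.50 and 6.68 with 5% IH plasma (2.28 ± 0.21, adjusted p = 0.0004) and *Thbd*, thrombomodulin, an anticoagulant receptor, 3.86 and 4.11 with autologous plasma and 5.49 and 5.95 with 5% IH plasma (1.73 ± 0.19, adjusted p = 0.00144), but the other probe set of *Plaur* read 0.24 and those of *Thbd* -0.12 and 0.47, and none of these passed. With *Anxa2*, a plasminogen receptor (0.67, other probe set 0.11), they were the 3 of 16 genes of plasminogen activation and coagulation that rose. The *Anxa2* call was lost without the 5% IH array of BN1 (adjusted p = 0.0631), that of BN2 (0.0817) and the autologous array of BN2 (0.0523). By contrast *F5*, coagulation factor V, fell by 0.47 ± 0.09 (adjusted p = 0.0285), a call lost without any single array of either plasma and without a control array (adjusted p = 0.0504). In the p53 list *Fas*, the death receptor, rose by 1.33 ± 0.13 (adjusted p = 0.000499), with its other probe sets at 0.05 and 0.18, and 2 of 15 rose and 1, *Gadd45a*, fell in all (median 0.02). Without the 5% IH array of BN2, an autologous array or a control array 1 of this list rose, and none fell without any array but a 10% IH one.

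Of 18 T cell activation genes 3 rose, *Nr4a1*, *Slc7a5* and *Myc*, by 0.89, 0.52 and 0.51 (median 0.23), but none passed without the 5% IH array of BN2 or the autologous array of BN1, and 1 without the 5% IH array of BN1, the autologous array of BN2 or a control array. Among 10 dendritic cell markers *Itgax* rose by 0.64 ± 0.13 (adjusted p = 0.0387), a call lost without any single array of the 8, and the summed level of the list was 2936 to 3022 with autologous and 3286 to 3382 with 5% IH plasma. No mast cell or basophil marker of 12 passed (summed level 281 to 284 against 297 to 310). The iron list held *Lcn2* and *Hmox1*, both described above, as its 2 rises among 13 genes, the latter lost without the 5% IH array of BN2.

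**Figure D4:**
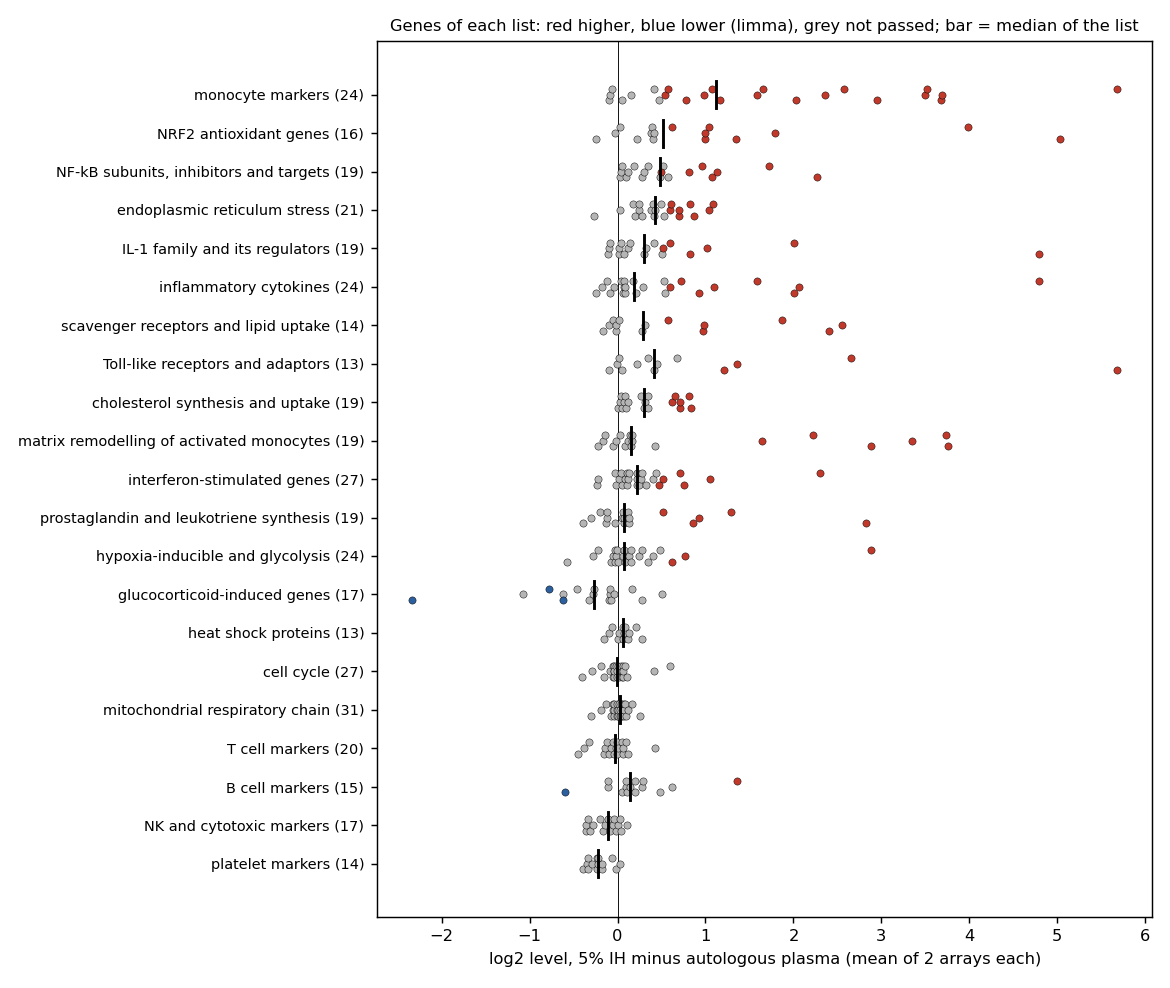
Log2 difference between 5% IH and autologous plasma (means of 2 arrays each) for every measured gene of 21 lists, with the number of genes in brackets; red genes rose and blue genes fell by limma, grey did not pass, and black bars are list medians. Monocyte markers have the highest median, 1.12, and glucocorticoid-induced genes the lowest, -0.26.

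The falls were fewer, smaller and less certain. *Rasd1*, a Ras-like protein first found as induced by dexamethasone, was the largest: it read 7.23 and 8.44 with autologous plasma and 5.61 and 5.39 with 5% IH plasma, and fell by 2.33 ± 0.31 (adjusted p = 0.00429), or 5.04-fold. BN1 cells fell by 1.62 and BN2 cells by 3.05, most of the gap lying in the autologous arrays. *Tsc22d3*, the glucocorticoid-induced leucine zipper, read 11.99 and 12.35 with autologous plasma and 11.54 and 11.55 with 5% IH plasma and fell by 0.63 ± 0.13 (adjusted p = 0.0461); with donor as a block its adjusted p was 0.0787. *Gadd45a*, a stress and growth arrest gene, read 8.90 and 9.09 with autologous plasma and 8.32 and 8.11 with 5% IH plasma and fell by 0.78 ± 0.14 (adjusted p = 0.027). *Fkbp5*, a cochaperone of the glucocorticoid receptor, read 8.51 and 9.46 with autologous plasma and 7.92 and 7.90 with 5% IH plasma, a difference of -1.07 ± 0.25 (adjusted p = 0.0875) that did not pass. In the list of 17 glucocorticoid-induced genes 3 fell and none rose, 8 were lower by the study's criterion, and the median was -0.26. The count of falls was 0 without the 5% IH array of BN2, 1 without that of BN1, without the autologous array of BN2 or without a control array, and 2 with donor as a block. The receptor gene *Nr3c1* (-0.07) and the targets *Sgk1* (-0.08), *Dusp1* (0.16) and *Per1* (-0.28) did not pass.

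The other 12 of the 15 largest falls lie in none of the gene lists. They include *Vangl2* (-1.0 ± 0.17, adjusted p = 0.0181, other probe set -0.68), a protein of planar cell polarity, *Zcchc18* (-0.97 ± 0.13, adjusted p = 0.00439), *Asap2* (-0.90 ± 0.12, adjusted p = 0.00457), which acts on small GTPases, *Cdyl2* (-0.83 ± 0.14, adjusted p = 0.0154), *Lmo2* (-0.77 ± 0.13, adjusted p = 0.0152), a transcription cofactor of blood cells, *Actn1* (-0.72 ± 0.09, adjusted p = 0.00364), the actin crosslinker, and *Cblb* (-0.70 ± 0.13, adjusted p = 0.024), a ubiquitin ligase that restrains T cells. *Evi2a* (-0.64 ± 0.09, adjusted p = 0.00477), *Ipmk* (-0.75 ± 0.13, adjusted p = 0.0184) and *Eps8* (-0.73 ± 0.14, adjusted p = 0.0412) fell as well, *Ipmk* and *Eps8* with another probe set near -0.07, and so did *Rasa2* (-0.74 ± 0.14, adjusted p = 0.0337), whose adjusted p was 0.0667 with donor as a block, and *LOC100912188* (-1.03 ± 0.18, adjusted p = 0.0216).

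In each of the 15 largest falls the groups did not overlap, as in 21.5% of all genes with 5% IH lower. These genes were chosen as calls that fell in both donors, so their lack of overlap is a description. None of the 15 kept its call without the 5% IH array of BN2. Without the 5% IH array of BN1, 10 of the 15 were lost, all but *Rasd1*, *Zcchc18*, *Asap2*, *Actn1* and *Evi2a*, and without the autologous array of BN2, 9 were lost, among them *Gadd45a* (0.161) and *Tsc22d3* (0.174). *Gadd45a* and *Eps8* were also lost without the autologous array of BN1 (0.0672 and 0.0654), *Rasa2* and *Tsc22d3* without a 10% IH array (0.0585 and 0.061), and these 4 without a control array. Of the 30 genes called lower, 23 fell further on BN2 than on BN1 cells.

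The same values were set beside those with the other Sprague-Dawley plasmas, to place the 5% IH values among them. These comparisons use the same 2 autologous arrays and are therefore not independent of each other. Over the 361 genes called higher with 5% IH plasma, the median difference from autologous plasma was 0.97 with 5% IH plasma, 0.84 with normoxic control plasma and 0.81 with 10% IH plasma. With control plasma all 361 also lay above autologous plasma, 359 of them by over 1.2-fold. Over the 30 genes called lower it was -0.62, -0.67 and -0.32. Both sets of genes were chosen on the 5% IH and autologous arrays, which by itself favours a larger difference with 5% IH plasma. The order of these medians is thus a description. Over all genes the median difference between 5% IH and control plasma was -0.0009. *Cd14*, at 10.21 and 10.40 with 5% IH plasma, read 9.78 and 10.03 with normoxic control plasma. The summed level of monocyte markers was 9069 to 10370 with control plasma and 10042 to 10635 with 10% IH plasma.

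Set directly against normoxic control plasma, which shares strain, age and sex with it, 5% IH plasma gave 0 limma calls among 31042 probe sets, with 790 at an unadjusted p under 0.05 and a lowest adjusted p of 0.545. By the study's criterion 207 genes were higher (1.46%) and 147 lower (1.03%). Against 10% IH plasma limma also made 0 calls, with 1452 at an unadjusted p under 0.05 and a lowest adjusted p of 0.981, and the criterion was met by 373 genes higher (2.62%) and 263 lower (1.85%). That 0 rested on 1 array, since without the 10% IH array of BN2 limma called 57 probe sets between 5% and 10% IH plasma, 54 higher and 3 lower. Of these, 4 stand for a named gene, *Wdr33*, *Zfp451*, *Zbtb41* and *N4bp1*, and the others have no single symbol or are dimmer probe sets.

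The 12 genes that the study lists for 5% IH plasma were chosen on these arrays, so their values are a description. With 5% IH plasma 10 of them rose against autologous plasma. *Ptges* did not pass on its brightest probe set, while its other, dimmer one did (1.26, adjusted p = 0.00145). *Abca5*, a transporter, at 4.24 and 4.22 with autologous plasma and 3.72 and 3.91 with 5% IH plasma, differed by -0.41 ± 0.09 (adjusted p = 0.0755) and did not pass. *Cxcl1* differed from autologous plasma by 2.76 with 5% IH and 1.44 with control plasma, a step of 1.32 ± 0.17 between the plasmas (levels 6.18 and 6.22 against 4.94 and 4.83). For *Il1a* the step was 1.22 ± 0.18 (6.51 and 6.20 against 5.02 and 5.24), for *Ptgs2* 1.17 ± 0.18 and for *Il1b* 0.98 ± 0.14. None of these 4 genes passed the adjustment, each with an adjusted p of 0.545. *Pdgfa*, a growth factor, rose by 1.69 ± 0.14 (adjusted p = 0.000265) against autologous plasma, with a step of 0.22 to control plasma, and *Cdkn1a*, the cell cycle inhibitor p21, by 0.74 ± 0.13 (adjusted p = 0.0215), a call lost without the 5% IH array of BN2 (adjusted p = 0.136), either autologous array (0.075 and 0.132) or a control array (0.0553). Its other, dimmer probe set differed by more, 2.02 (adjusted p = 0.000691).

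The levels of the falls were set beside those with the other plasmas as well. *Rasd1* read 5.61 and 5.39 with 5% IH plasma and 5.54 and 5.61 with control plasma, but 7.17 and 7.05 with 10% IH plasma, next to 7.23 and 8.44 with autologous plasma. *Gadd45a* read 9.02 and 8.61 with 10% IH plasma, *Fkbp5* 8.31 and 8.64 and *Tsc22d3* 12.06 and 11.88. The difference between 5% and 10% IH plasma was -1.61 for *Rasd1*, -0.60 for *Gadd45a*, -0.56 for *Fkbp5* and -0.43 for *Tsc22d3*, each with an adjusted p of 0.981. All 15 largest falls lay nearer to autologous plasma with 10% IH than with 5% IH plasma, and 11 of the 15 lay further from it with control than with 5% IH plasma. The 15 genes were chosen for their fall with 5% IH plasma, which by itself favours a smaller fall with another plasma. The count for 10% IH plasma is thus a description.

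**Figure D5:**
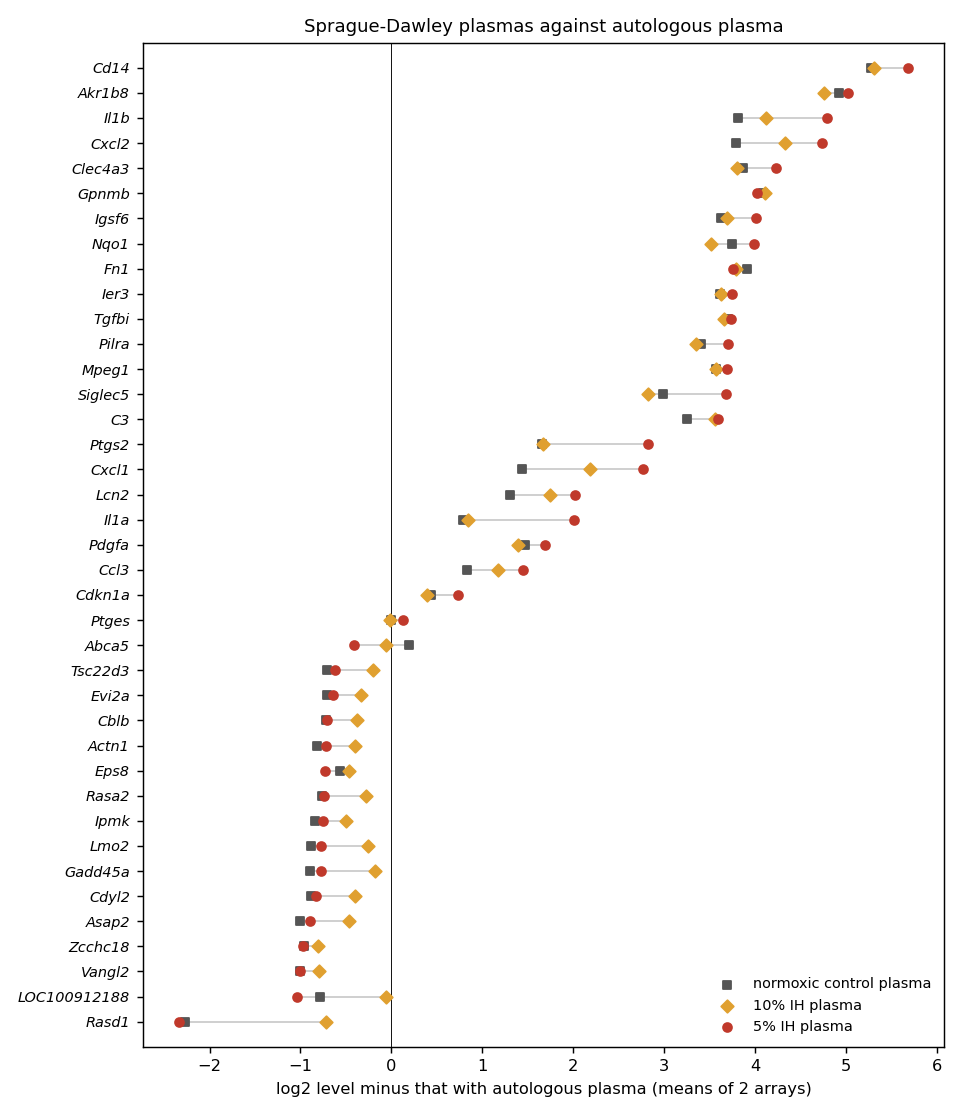
Log2 level minus that with autologous plasma (means of 2 arrays each) for the 15 largest rises, the 15 largest falls and the study's genes for 5% IH, with 5% IH (red circles), 10% IH (yellow diamonds) and normoxic control plasma (dark squares). Cd14 stands at 5.68, 5.31 and 5.28 with the 3 plasmas, and Rasd1 at -2.33, -0.72 and -2.27.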

How the data were processed

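RNA of 8 PBMC cultures was hybridized to Affymetrix rat genome arrays. The deposited values are log2 expression levels, which the authors quantified with Expression Console and normalized with Robust Multichip Analysis. The submitters' processing notes also name Partek, with no role, and versions are not given in the sources used here. The number of arrays limits the precision. The arrays had medians between 5.53 and 5.56. Of 31042 probe sets, 20826 carry 1 gene symbol in the platform annotation, 436 several and 9780 none. Those with 1 symbol stand for 14217 genes, of which 14167 were found in RefSeq by gene ID. A gene is read by its brightest probe set, by the mean over the 8 arrays. That mean takes in the Sprague-Dawley plasma arrays, so the choice can favour a probe set that rose.

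Differences were tested with limma 3.58.1 in R 4.3.3 (lmFit and eBayes, moderated over all 8 arrays in 4 groups) and Benjamini-Hochberg adjustment over all probe sets. The study's criterion was rebuilt with an implementation of the Rank Product statistic written for this work, on the 4 between-array ratios with 100 permutations. Both were tested on simulated data. Groups were taken from the array titles. Named are the 15 largest rises and the 15 largest falls among limma calls past 1.2-fold in both donors, the 12 genes the study lists, up to 4 members of each gene list and the defining markers. The members and lists were chosen with earlier results of these data known. By their titles, arrays with the same number hold cells of the same donor and are thus paired. Their deviations from the group means correlated at -0.083 between 5% IH and autologous plasma, and between -0.171 and 0.240 over the 6 pairs of groups. The test without the donor is the main one, and donor as a block an alternative. Another normalization or centring, other probe set choices, donor as a block, other moderation and thresholds, and leaving out each array were tried. Promoters are RefSeq's for GRCr8.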

Additional observations from a re-analysis of the deposited data

How the results depend on the processing

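Over probe sets, limma called 609, 532 higher with 5% IH plasma and 77 lower. The higher calls stayed within 1.5 times under each of the 10 settings other than leaving out a single array. The lower calls numbered 131 once the dimmest 40% were dropped and 35 with the 4 arrays of the compared groups alone. They numbered 210 with an intensity trend and robust moderation, and 15 of 372 at an adjusted p under 0.01. Leaving out 1 array of the 8 gave 308 to 574 calls in all, 292 to 497 higher and 16 to 92 lower. The study's criterion gave 3336 probe sets (1677 higher, 1659 lower). It gave 2220 (1138 and 1082) without the dimmest 40%, 1480 (869 and 611) with 1 probe set per gene, 1299 (797 and 502) with probe sets averaged by gene, 2153 (1117 and 1036) with a 2-sided p, and 190 (166 and 24) with the estimated share of false predictions under 0.05. Leaving out an array of either plasma gave 3084 to 3427 (1446 to 1857 higher, 1570 to 1708 lower). Against control plasma limma made 0 calls in each setting, and against 10% IH plasma 0 to 57 when 1 array was left out. The cause of these shifts was not tested, beyond the fewer probe sets or arrays in some settings.

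With donor as a replicate block limma called 585 probe sets, 521 higher and 64 lower, and the study's criterion on ratios within donors gave 3078 (1561 and 1517). Over genes the paired fit called 380 against 391 without the block, 358 of them in both. Of the genes named in the report it changed the calls of *Ebf1*, *Tsc22d3* and *Rasa2*, as given there, and no other, and apart from the fall of *Ebf1* it moved no list's count by over 1.5 times. With the 4 compared arrays alone, 4 genes of the NF-kB list rose, 2 immediate-early genes, 2 interferon-stimulated genes, 1 of the hypoxia list and no T cell activation gene. With an intensity trend and robust moderation 11 of the NF-kB list, 5 of the hypoxia list and 5 T cell activation genes rose. Of 4488 values of single genes and lists under the other settings, 4162 kept their direction and side of the threshold, 172 lost the call, 32 gained one, 122 list counts moved by over 1.5 times, and none changed direction. Each group holds 2 arrays and each Sprague-Dawley plasma 1 pool, so the spread between plasma donors was not measured.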
